A study of Mus musculus with 6 samples.

Results

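Described here are 10 genes that join broken DNA ends or repair single-strand breaks: Xrcc5, Xrcc6, Dclre1c, Lig4, Xrcc4, Nhej1, Parp1, Xrcc1, Lig3 and Polq. They were chosen by name, not by a measured value, from a table of 34665 genes, and all 10 had counts high enough to be tested. The table holds bulk RNA sequencing of tumours of B16, a melanoma cell line of the mouse, labelled as wild type, in 6 libraries. The ICI group (replicates 1, 2 and 3) received an immune checkpoint inhibitor, and the RI group (replicates 1, 2 and 4) received radiation and the inhibitor. Both groups therefore carry the inhibitor, and the comparison is of radiation added to it. No untreated and no irradiated-only tumours are part of this comparison. The sources used here do not give the inhibitor's target, the dose, the interval between radiation and harvest or the animals' age, nor do they say whether the sampled tumours were themselves irradiated. Nothing in the labels ties a library to its own mouse. The p-values therefore reflect library-to-library spread, which may be technical.

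Cells rejoin a double-strand break mainly by classical end joining. The Ku ring (Xrcc5 and Xrcc6) slides onto each end and recruits the kinase encoded by Prkdc, the Artemis nuclease (Dclre1c) trims ends that cannot be joined directly, and DNA ligase IV (Lig4), held by its partners Xrcc4 and the XLF protein (Nhej1), seals them. Single-strand breaks are sensed by Parp1, whose poly(ADP-ribose) chains recruit the scaffold Xrcc1 with its bound DNA ligase III (Lig3), and polymerase theta (Polq) joins resected ends through short matching stretches. Radiation makes breaks of both kinds. RNA was measured here, not protein or repair activity.

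The libraries held 22543721 to 45624013 counts, and the 10 genes held 93 to 6862 counts each per library. RI replicate 1 stood apart, with 29748 rows detected where the remaining 5 libraries had 22763 to 24891. Mitochondrially encoded rows took 4.39% to 5.01% of counts in ICI and 11.5% to 14.7% in RI. All 7 melanocyte markers looked for were present in every library, at a summed 13340 to 15180 CPM (the count scaled to library size) in ICI and 10072 to 14379 in RI. In bulk tissue, fewer cells of a type and less RNA per cell cannot be told apart.

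Both ligase genes in the set, Lig4 and Lig3, were lower when radiation was added, each by about the same factor, and none of the other 8 members passed the test. Lig4 was 1.61-fold lower and Lig3 1.60-fold lower. Of 10 members, 2 fell and 0 rose at an adjusted p under 0.05, against 4.72% lower and 4.46% higher (9.18% in all) among the 16924 genes tested. That was 754 genes higher and 799 lower, a split that upper-quartile scaling moved to 1046 and 497. At an unadjusted p under 0.05 in edgeR, 4 members were lower and 1 higher, against 15.8% and 15.7% of all tested genes. DESeq2 called 4 lower and 0 higher, against 10.3% and 10.5% of the genes with an adjusted p, and limma-voom 2 lower and 0 higher, against 4.08% and 3.75%. In 4 members (Lig4, Lig3, Parp1 and Xrcc6) every RI library lay below every ICI library, which was so for 19.4% of all tested genes. In 0 members did every RI library lie above, against 17.8%. The median log2 fold change (RI minus ICI) of the 10 was -0.33, beside 0.01 over all tested genes.

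**Figure D1:**
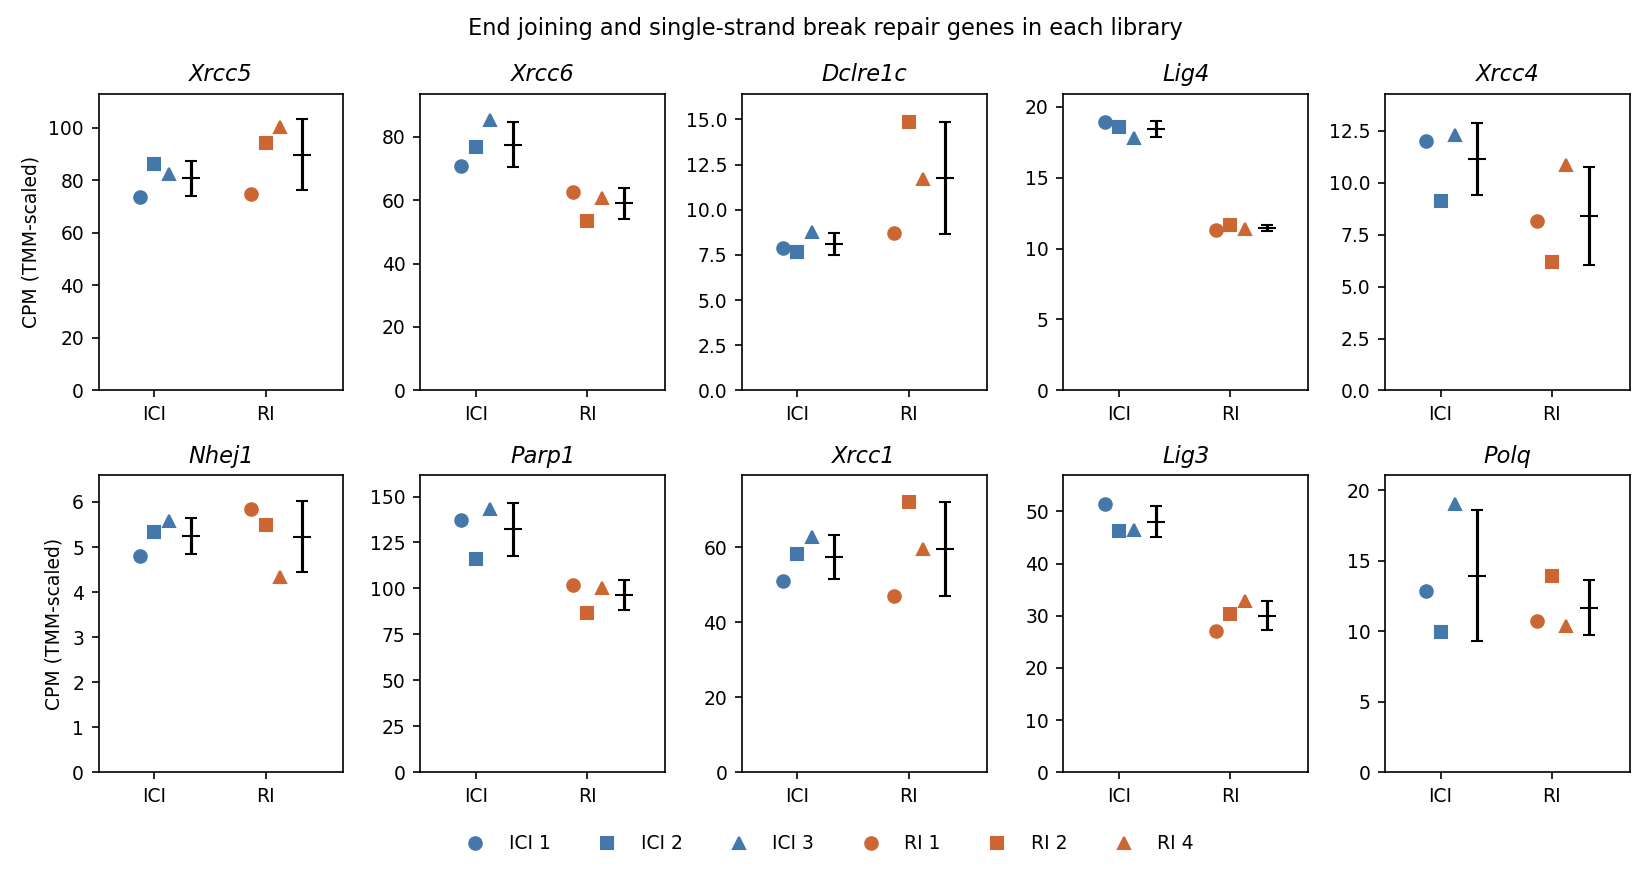
Level of each of the 10 genes in every library, in TMM-scaled CPM on an axis from 0, with the mean and SD of each group (n = 3) in black. Lig4 and Lig3 form 2 tight, separate groups, and Parp1 and Xrcc6 do not overlap either. Xrcc5, Dclre1c, Xrcc4, Nhej1, Xrcc1 and Polq overlap.

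Lig4 encodes the ligase that performs the last step of classical end joining (chromosome 8, 9969049 to 9977686 on GRCm38, minus strand, 2 exons in its longest transcript). It stood at 18.9, 18.6 and 17.8 CPM in ICI replicates 1, 2 and 3 and at 11.3, 11.7 and 11.3 CPM in RI replicates 1, 2 and 4. The highest RI library lay well below the lowest ICI library, and libraries within each group differed little. The means were 18.4 ± 0.556 CPM in ICI and 11.4 ± 0.212 in RI (SD, n = 3 each), a log2 fold change of -0.69 (SE 0.14, adjusted p = 0.0346, edgeR).

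Lig3 encodes the ligase of single-strand break repair and of mitochondrial DNA (chromosome 11, 82781108 to 82804274, plus strand, 20 exons in its longest transcript). Its levels were 51.5, 46.2 and 46.4 CPM in ICI replicates 1, 2 and 3 and 27.1, 30.3 and 32.8 CPM in RI replicates 1, 2 and 4. Again the groups did not overlap. The means were 48.0 ± 3.00 and 30.0 ± 2.86 CPM (SD, n = 3 each), a log2 fold change of -0.68 (SE 0.13, adjusted p = 0.0321, edgeR). The gene Rffl runs on the opposite strand and covers 25.1% of the Lig3 exon bases. The counting is not stated to use strand, so reads there cannot be assigned. Rffl itself stood at 9.72 CPM in ICI and 9.32 CPM in RI (log2 fold change -0.06, adjusted p = 0.837, edgeR).

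The calls of both ligases were sensitive to which libraries were used, while the size of the change was not. Without RI replicate 1 both were called (adjusted p = 0.0248 for Lig4 and 0.0219 for Lig3, edgeR). Neither was called without ICI replicate 1 (0.152 for each), ICI replicate 2 (0.0660 and 0.0548), ICI replicate 3 (0.106 and 0.101), RI replicate 2 (0.104 and 0.0960) or RI replicate 4 (0.0958 and 0.0723). Calls were few over the whole table in some of these fits, with 0 genes called without ICI replicate 1 or RI replicate 2, where 3701 and 4107 genes had an unadjusted p under 0.05 in edgeR. Over these 6 fits the log2 fold change ran from -0.72 to -0.68 for Lig4 and from -0.74 to -0.61 for Lig3.

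The stretch before a start site of each called gene is printed because these 2 members fell by like amounts. Shared control of the 2 was not tested. RefSeq (GRCm38.p6) gives Lig4 more than 1 start, and the window shown lies before the inner one, since that before the outer start runs over an exon of the divergent gene Abhd13. It is 250 bases at chr8:9976312-9976561, minus strand, inside the annotated gene but over no annotated exon. The Lig3 window is 249 bases at chr11:82780859-82781107, plus strand, ending before the first annotated exon of Lig3, and a noncoding exon of Gm11423 overlaps it on the other strand. Capitals mark matches on either strand to the GC box (GGGCGG) or the ETS core, which was searched as CCGGAAG. Also searched were the CCAAT box by those letters, the half-site of the CRE element as TGACG, and the TATA box by the letters TATAAA.
Lig4: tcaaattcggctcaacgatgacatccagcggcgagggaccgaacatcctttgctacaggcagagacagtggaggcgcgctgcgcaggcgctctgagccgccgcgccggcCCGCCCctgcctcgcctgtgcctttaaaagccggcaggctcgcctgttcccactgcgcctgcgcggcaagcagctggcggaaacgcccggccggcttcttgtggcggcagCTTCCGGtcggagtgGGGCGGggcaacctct
Lig3: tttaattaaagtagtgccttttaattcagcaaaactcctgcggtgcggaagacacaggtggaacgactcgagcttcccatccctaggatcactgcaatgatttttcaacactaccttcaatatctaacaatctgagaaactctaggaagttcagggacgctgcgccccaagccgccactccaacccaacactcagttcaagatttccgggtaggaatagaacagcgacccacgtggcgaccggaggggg
The printed Lig4 window held 2 GC boxes and 1 ETS core, with 68.4% G and C and 28 CpG sites. The window before the outer Lig4 start held 0 GC boxes and 1 ETS core. Sequence just after the outer start was found in an annotated Lig4 transcript, and sequence just after the inner start was not. The Lig3 window held 0 matches to any of the 5 motifs, with 49.8% G and C and 12 CpG sites. Among 32851 windows of 250 bases before RefSeq starts, 32.7% held a GC box, 33.8% a CCAAT box, 6.91% the ETS core, 17.8% the CRE half-site and 12.4% a TATA box, and the median was 52.4% G and C with 6 CpG sites. Over all 10 members, 6 genes had a GC box, 3 a CCAAT box, 3 the ETS core, 2 the CRE half-site and 0 a TATA box in such a window. These are counts of genes over 11 windows, since Lig4 has more than 1, whereas the shares are of windows. Lig4 counts for the GC box through its inner window only.

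The Ku subunits bind DNA as a pair, and neither of their transcripts passed the test. Xrcc5, which encodes Ku80 (chromosome 1, 72307421 to 72394952), stood at 73.6, 86.4 and 82.3 CPM in ICI replicates 1, 2 and 3 and at 74.8, 94.4 and 100 CPM in RI replicates 1, 2 and 4. The groups overlapped, because RI replicate 1 lay among the ICI libraries. The log2 fold change was 0.15 (SE 0.15, adjusted p = 0.491, edgeR), with 2 SE to either side reaching from -0.14 to 0.44.

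Xrcc6, which encodes Ku70 (chromosome 15, 81987835 to 82040085), stood at 70.8, 76.7 and 85.1 CPM in ICI and at 62.6, 53.5 and 60.7 CPM in RI, in the same order of replicates. All RI libraries were below all ICI libraries, yet the difference missed the threshold (log2 fold change -0.40, SE 0.13, adjusted p = 0.0786, edgeR). DESeq2 called it (adjusted p = 0.0483). The neighbour Desi1 overlaps 7.69% of the Xrcc6 exon bases on the opposite strand.

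Dclre1c, the gene of the Artemis nuclease (chromosome 2, 3424131 to 3464130), had the highest log2 fold change of the 10 and did not pass. It stood at 7.88, 7.67 and 8.78 CPM in ICI replicates 1, 2 and 3 and at 8.69, 14.9 and 11.7 CPM in RI replicates 1, 2 and 4. RI replicate 1 lay within the ICI range and the other RI libraries above it. The log2 fold change was 0.54 (SE 0.23, adjusted p = 0.152, edgeR), and without RI replicate 1 it was 0.71 and called (adjusted p = 0.0408).

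The partners that hold ligase IV were not called. Xrcc4 (chromosome 13, 89774027 to 90089608) stood at 12.0, 9.13 and 12.3 CPM in ICI and at 8.16, 6.18 and 10.9 CPM in RI. Its groups overlapped through ICI replicate 2 and RI replicate 4, with a log2 fold change of -0.41 (SE 0.25, adjusted p = 0.287, edgeR) that ran from -0.64 without RI replicate 4 to -0.22 without RI replicate 2. Nhej1, the gene of XLF (chromosome 1, 74967139 to 75125200), stood at 4.80, 5.33 and 5.58 CPM in ICI and at 5.85, 5.50 and 4.34 CPM in RI. Its groups overlapped fully. The fold change was near 0 (SE 0.23, adjusted p = 0.998, edgeR), with 2 SE reaching from -0.46 to 0.46, so a change of that size in either direction was not resolved.

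Parp1, the break sensor of the single-strand pathway, had the highest mean CPM of the 10 in both groups, though Xrcc5 lay above it in RI replicates 2 and 4 (chromosome 1, 180568924 to 180601254). It stood at 137, 116 and 143 CPM in ICI replicates 1, 2 and 3 and at 102, 86.9 and 100 CPM in RI replicates 1, 2 and 4. The groups did not overlap, but the difference missed the threshold (log2 fold change -0.46, SE 0.14, adjusted p = 0.0691, edgeR). It was called by DESeq2 (adjusted p = 0.0263) and by edgeR with no filter on low counts (0.0392).

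Xrcc1, the scaffold that binds ligase III (chromosome 7, 24546289 to 24573440), stood at 51.0, 58.2 and 62.7 CPM in ICI and at 47.0, 72.0 and 59.5 CPM in RI. The lowest and the highest library were both RI libraries. The log2 fold change was 0.05 (SE 0.17, adjusted p = 0.854, edgeR), with 2 SE reaching from -0.29 to 0.40.

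Polq, the polymerase of microhomology-mediated joining (chromosome 16, 37011786 to 37095417), varied most within ICI. It stood at 12.9, 9.96 and 19.0 CPM in ICI replicates 1, 2 and 3 and at 10.7, 13.9 and 10.4 CPM in RI. ICI replicate 3 was the highest and ICI replicate 2 the lowest of all 6 libraries. The log2 fold change was -0.26 (SE 0.26, adjusted p = 0.524, edgeR), and without ICI replicate 3 it was 0.02 (adjusted p = 0.961).

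The summed level of dividing cell markers was also lower in RI. The 14 markers summed to 1591, 1461 and 2349 CPM in ICI replicates 1, 2 and 3 and to 1220, 1300 and 1078 CPM in RI replicates 1, 2 and 4, so the groups did not overlap, and ICI replicate 3 was the highest, as it was for Polq. Single genes with every RI library below every ICI library made up 19.4% of those tested. Of the 14 markers, 3 were called lower (Mcm2, Mcm4 and Top2a) and 0 higher, against 4.72% and 4.46% of all tested genes. The 11 not called included Mki67 (means of 215 CPM in ICI and 204 in RI), Cdk1 (114 and 116) and Plk1 (59.1 and 62.9). None of the 14 was at 0 in all libraries. Lig4 differed little among libraries of a group. It was lowest in replicate 3 within ICI, and within RI it was highest in replicate 2, as was the sum. Lig3 was highest in replicate 1 within ICI (51.5 CPM), and within RI in replicate 4 (32.8 CPM), where the sum was lowest. The sum of the fat cell markers moved the other way, from 0.654 to 25.4 CPM in ICI to 53.3 to 77.1 CPM in RI. Of 5 tested, 1 was called higher, against 4.46% of all tested genes. The highest means in RI were those of Cfd (5.18 CPM in ICI and 30.5 in RI) and Plin4 (1.77 and 24.9). Cidec, Adipoq and Plin1 also had higher means in RI, but Adipoq and Plin1 were highest in ICI replicate 3. Lep had a lower mean in RI (0.300 and 0.042 CPM). The part of dividing cells or of fat cells in the levels of Lig4, Lig3 and Polq was not tested. Lymphocyte markers are of interest because lymphocytes use end joining to assemble receptor genes. These markers summed to 3.32 to 28.0 CPM in ICI and 2.79 to 9.15 CPM in RI. Of 5 tested, 0 were called, against 9.18% of all tested genes.

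Per kilobase of the longest transcript, the level of the members spanned a wide range. In ICI, Parp1 (34.1 CPM per kilobase), Xrcc5 (31.6), Xrcc6 (23.5) and Xrcc1 (22.7) were the highest, followed by Lig3 (8.06), Nhej1 (4.98), Lig4 (3.67), Xrcc4 (3.26), Polq (1.62) and Dclre1c (1.15). In RI, Xrcc5 (35.2) led, followed by Parp1 (24.9), Xrcc1 (23.5) and Xrcc6 (17.9). Among ICI libraries the levels of Parp1 and Xrcc5, of Xrcc6 and Xrcc1, of Lig4 and Xrcc4, and of Polq and Dclre1c overlapped, while the other neighbours in the order did not. The Ku genes, Parp1 and Xrcc1 lay above both ligases and Dclre1c in both groups. Xrcc1 is the least certain, since its annotated exons together span 5831 bases and its longest transcript 2528.

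Ratios of partner genes within a library do not depend on how libraries are scaled, but they were not corrected for transcript length or GC content. The Xrcc1 to Lig3 count ratio was 0.991, 1.26 and 1.35 in ICI replicates 1, 2 and 3 and 1.74, 2.38 and 1.81 in RI replicates 1, 2 and 4. It was higher in every RI library, 1.64-fold on average. The 2-sided exact permutation test gave p = 0.1, or 0.3 adjusted over 6 pairs, and 3 libraries against 3 cannot give less than 0.1. The Xrcc5 to Xrcc6 ratio was 1.04, 1.13 and 0.966 in ICI and 1.20, 1.76 and 1.65 in RI. It was again higher in every RI library, 1.45-fold on average (exact permutation p = 0.1, 0.3 adjusted over 6 pairs).

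The other 4 ratios overlapped between the groups. They were Xrcc4 to Lig4 (1.19-fold higher in RI, exact permutation p = 0.4), Nhej1 to Xrcc4 (1.34-fold higher, p = 0.4), Polq to Lig4 (1.39-fold higher, p = 0.3) and Parp1 to Xrcc1 (1.41-fold lower, p = 0.2). Adjusted over the 6 pairs these were each at 0.4. Leaving out 1 library at a time moved the log2 difference of Xrcc4 to Lig4 (0.26) between 0.04 without RI replicate 4 and 0.47 without RI replicate 2. That of Nhej1 to Xrcc4 (0.42) ran from 0.18 without RI replicate 2 to 0.76 without RI replicate 4. That of Polq to Lig4 (0.47) ran from 0.25 without ICI replicate 2 to 0.74 without ICI replicate 3. That of Parp1 to Xrcc1 (-0.49) ran from -0.69 without RI replicate 1 to -0.27 without RI replicate 2. None of the 6 ratios passed, and none could with so few libraries.

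**Figure D2:**
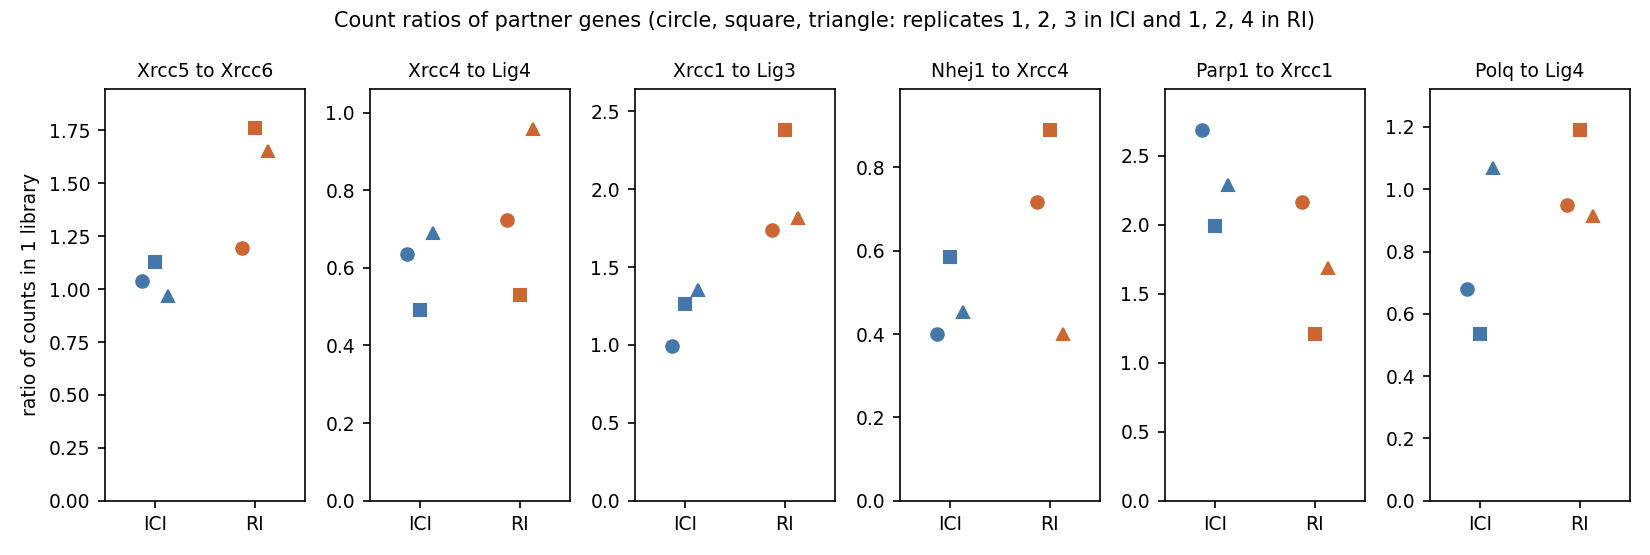
Ratio of the counts of 2 partner genes in each library, on axes from 0, for the 6 pairs examined. Xrcc5 to Xrcc6 and Xrcc1 to Lig3 were higher in all 3 RI libraries than in any ICI library, and the other 4 pairs overlapped.

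Fold changes in these libraries followed transcript length, so each member was set beside tested genes of like length. The median log2 fold change was 0.37 in the shortest decile of genes and -0.26 in the longest. Lig4 (5028 bases) and Lig3 (5957 bases) fell in the same decile, with a median of -0.17, in which 9.08% of genes were called lower. Their fold changes lay 0.52 and 0.50 below that median. Dclre1c (7075 bases) and Polq (8628 bases) were among the longest genes. Dclre1c lay 0.79 above the median of its decile, and Polq lay at it. Nhej1 (1053 bases), with a fold change near 0, lay 0.26 below that of its own.

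With each library corrected for transcript length and GC content, Lig4 was at -0.48 (SE 0.15, adjusted p = 0.0927, edgeR) and Lig3 at -0.54 (SE 0.14, adjusted p = 0.0616), so neither was called. Parp1 (-0.47, adjusted p = 0.0772, edgeR) and Xrcc6 (-0.47, adjusted p = 0.0799) kept their size, close to those of the ligases. Dclre1c was at 0.77 (adjusted p = 0.0806), and Xrcc1 went from 0.05 to -0.25. Xrcc1 has 59.3% G and C and falls in a GC decile whose median fold change was 0.29 on the log2 scale. With the correction Xrcc1 and Lig3 stood at -0.25 and -0.54, closer together than at 0.05 and -0.68, whereas Xrcc5 and Xrcc6 stood at 0.16 and -0.47. With the correction and RI replicate 1 left out, Lig3 (-0.46, adjusted p = 0.0478) and Dclre1c (0.96, adjusted p = 0.0202) were called and Lig4 (-0.47, adjusted p = 0.0738) was not.

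**Figure D3:**
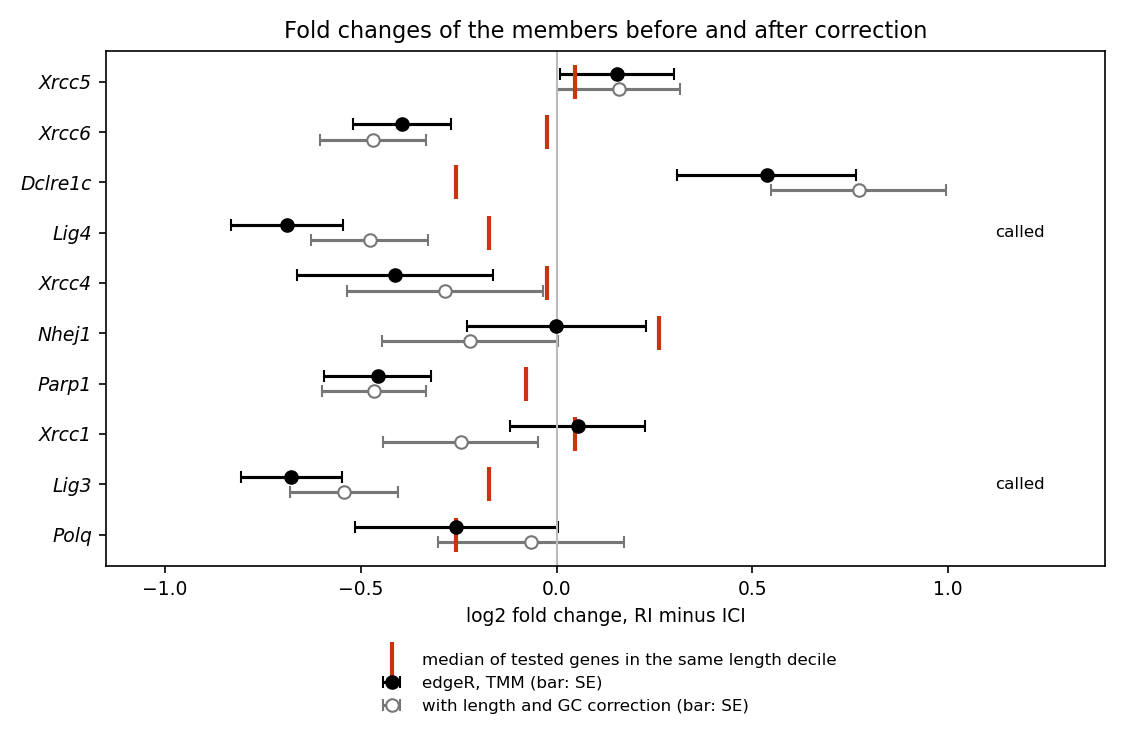
Log2 fold change (RI minus ICI) of the 10 genes with its SE, from edgeR (filled) and with the correction for transcript length and GC (open), with the median of tested genes in the same decile of length as a red tick and the genes called without the correction marked. Lig4 and Lig3 lie left of their ticks by 0.52 and 0.50, and both moved toward 0 with the correction.

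Other genes of the same pathways were counted from lists written with earlier results of these data known. Of 47 further repair genes tested, 1 rose, 6 fell and 40 did not pass, with a median log2 fold change of -0.11. Over all tested genes 4.46% rose and 4.72% fell, with a median of 0.01. In classical end joining 1 of 10 rose and 0 fell. Paxx, an XRCC4-like factor that stabilises Ku on DNA, rose from 13.4 ± 4.59 to 26.7 ± 4.18 CPM (SD, n = 3 each, log2 fold change 0.99, adjusted p = 0.0479, edgeR). The length decile of Paxx had a median log2 fold change of 0.26, and 8.25% of its genes were called higher. Prkdc, the kinase recruited by Ku, stood at 24.3 ± 1.53 CPM in ICI and 23.3 ± 2.79 in RI. The gap-filling polymerases of this pathway were not called, with Poll at 25.8 ± 0.744 and 26.3 ± 4.35 CPM and Polm at 15.8 ± 1.73 and 25.3 ± 10.3.

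Among 14 genes that steer the choice between end joining and resection, 3 fell, 0 rose and 11 did not pass, against 4.72% lower and 4.46% higher over all tested genes. Their median transcript length, 5278.5 bases, falls in the length decile of Lig4 and Lig3, in which 9.08% of genes were called lower. Rif1, which protects ends from resection, fell from 58.7 ± 5.69 to 35.0 ± 2.82 CPM (SD, n = 3 each, log2 fold change -0.74, adjusted p = 0.0282, edgeR). Mdc1, the reader of phosphorylated histone H2AX, fell by 0.77 on the log2 scale, and Rnf168, the ubiquitin ligase that marks chromatin for 53BP1, by 0.61. Trp53bp1, the gene of 53BP1 itself, stood at 40.9 ± 0.274 CPM in ICI and 41.7 ± 6.34 in RI (adjusted p = 0.911, edgeR). By their own length, Rif1 and Mdc1 fall in the longest decile, in which 13.7% of genes were called lower. Rnf168 falls in a decile in which 7.48% were called lower.

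Of 14 further single-strand break repair genes 2 fell, 0 rose and 12 did not pass, against 4.72% lower and 4.46% higher over all tested genes. Parg, which removes the chains that Parp1 builds, fell from 30.6 ± 2.07 to 20.2 ± 0.825 CPM (SD, n = 3 each, log2 fold change -0.60, adjusted p = 0.0371, edgeR). Fen1, a flap endonuclease, fell by 2.16 on the log2 scale, from 4.33 ± 1.22 to 0.955 ± 0.518 CPM. An antisense gene, Gm10143, covers 78.8% of the Fen1 exon bases, and reads there cannot be assigned. Parp2, the relative of Parp1, stood at 27.4 ± 3.46 and 32.1 ± 7.96 CPM, and the gap-filling polymerase gene Polb at 28.0 ± 1.65 and 25.9 ± 0.863. Lig1, the remaining vertebrate DNA ligase gene, used mainly in replication, stood at 69.5 ± 15.2 CPM in ICI and 52.8 ± 8.25 in RI and was not called (log2 fold change -0.40, SE 0.18, adjusted p = 0.183, edgeR). Of 11 glycosylase genes, which cut out damaged bases, 1 fell (Ung, by 0.55 on the log2 scale) and 10 did not pass, against the same shares over all tested genes.

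These 7 calls also depended on single libraries. All 7 held without RI replicate 1, and Paxx, Rif1, Rnf168 and Mdc1 also without ICI replicate 2, but 0 of the 7 held without ICI replicate 1, ICI replicate 3, RI replicate 2 or RI replicate 4. With the correction applied, 1 of the 47 genes, Fen1, was called (adjusted p = 0.0412, edgeR), against 610 of all 16924 tested genes. The limit on the reads of Fen1 given above applies here too.

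**Figure D4:**
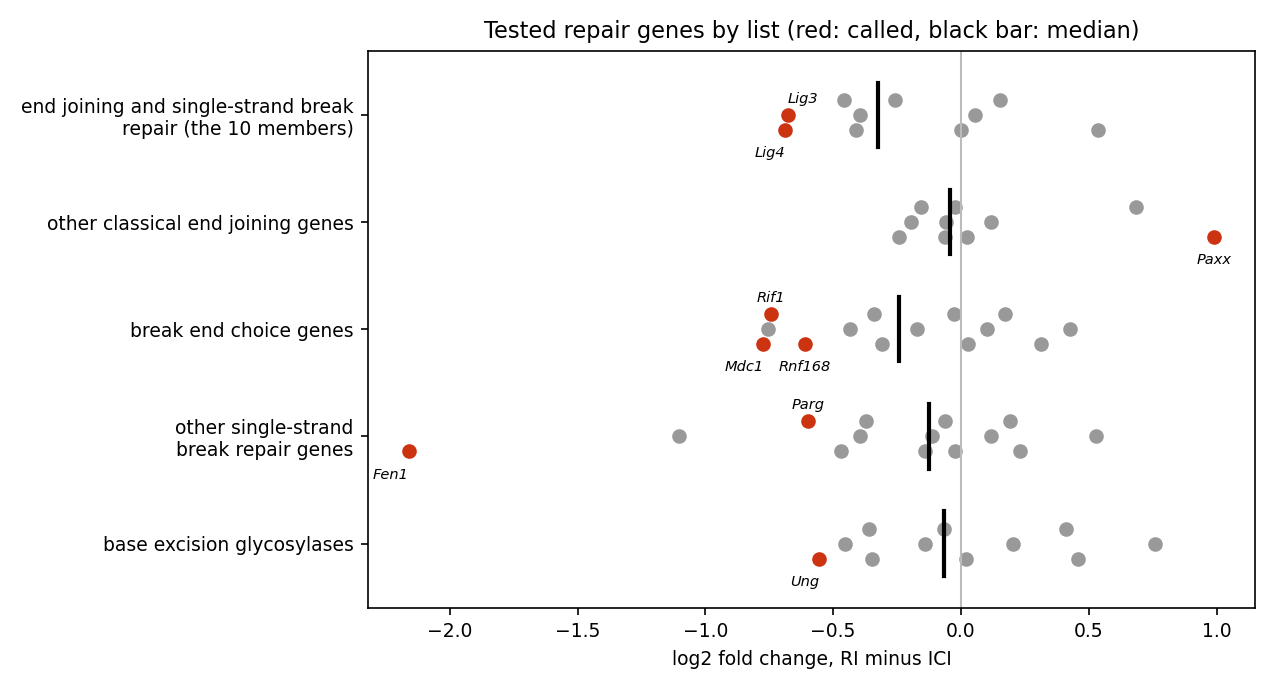
Log2 fold change (RI minus ICI) of each tested gene in 5 repair lists, with called genes in red and named, others in grey, and the median of each list as a black bar. The called genes are Lig4 and Lig3 among the 10 members, and Paxx, Rif1, Mdc1, Rnf168, Parg, Fen1 and Ung in the others.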

How the data were processed

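The authors deposited whole-number counts per Ensembl gene, 1 column per library. The submitters' processing notes name HISAT2 and, as builds, GRCm38 and mm10. How reads were assigned to genes, with which strand setting and annotation, is not given in the sources used here. A total of 83 rows had no symbol.

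Counts were tested with edgeR 4.0.16 in R 4.3.3 (filterByExpr, TMM scaling, robust quasi-likelihood test, no covariate), with Benjamini-Hochberg adjustment over all 16924 tested genes and calls at an adjusted p under 0.05. The SE came from the fold change and the F statistic. Levels are CPM scaled by TMM. Alternatives used DESeq2 1.42.0, limma-voom (limma 3.58.1), other scalings and filters, and a per-library correction by splines on the length and GC content of the longest transcript, known for 99.6% of tested genes. Positions, lengths and exon overlaps came from GENCODE release M21 on GRCm38. Start-site windows came from RefSeq (GRCm38.p6), which held all 10 members by symbol. Sequence just after the start was not found in an annotated transcript of the gene for Nhej1, Parp1 and the inner Lig4 start. Near-identical copies (200 bases at 95% identity, blastn 2.17.0) were looked for, and among the members only the overlapping genes of Lig3 and Xrcc6 were found. The scripts were tested on simulated data.

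All 10 members were named, each listed gene past the threshold, and Prkdc, Poll, Polm, Paxx, Parp2, Polb, Trp53bp1 and Lig1 whatever their result. A result that this rule also took is not reported here. The markers were 9 lists for cell types. Skeletal muscle markers summed to 1.09 to 173 CPM in ICI and 14.0 to 2040 in RI, red cell markers to 226 to 4481 and 110 to 454, macrophage markers to 126 to 135 and 112 to 263, fibroblast markers to 74.7 to 499 and 244 to 488, and endothelial markers to 56.5 to 146 and 56.0 to 164, with 0 of their members called. Over all tested genes 9.18% were called in either direction. The members and lists were chosen with earlier results of these data known.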

Additional observations from a re-analysis of the deposited data

How the results depend on the processing

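Median-of-ratios scaling, limma-voom, no robust estimation, a filter of 1 CPM in 3 libraries, leaving out mitochondrially encoded genes, and upper-quartile scaling each left 2 members lower and 0 higher. No filter on low counts gave 3 lower, and DESeq2 and an adjusted p under 0.1 each 4. The length and GC correction gave 0, and, with RI replicate 1 left out, 1 lower and 1 higher. Leaving out 1 library at a time gave 0 to 2 members lower and 0 to 1 higher.

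Over all genes, 754 were higher and 799 lower. Upper-quartile scaling gave 1046 higher and 497 lower and no filter 1121 and 1507, DESeq2 1746 higher and 1703 lower, an adjusted p under 0.1 1802 and 1833, the correction 261 and 349, and the correction with RI replicate 1 left out 1186 and 1293. Without 1 library the numbers ran from 0 to 1564 higher and from 0 to 1545 lower. No gene was called in either direction without ICI replicate 1 or without RI replicate 2, where 3701 and 4107 genes had an unadjusted p under 0.05 in edgeR. The cause was not tested.

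The replicate numbers 1 and 2 occur in both groups but no label says that they mark a shared animal or day. Correlations of deviations from the group means were 0.35 for the libraries numbered 1 and 0.09 for those numbered 2. Pairs with unlike numbers ran from -0.32 (ICI replicate 1 with RI replicate 4) to 0.27 (ICI replicate 3 with RI replicate 4). With the replicate number as a block, 400 genes were higher and 245 lower, and with the correction added 203 and 121. Number 3 occurs only in ICI and number 4 only in RI, so the group difference there rests on replicates 1 and 2 alone. An effect of shared numbers and the loss of ICI replicate 3 and RI replicate 4 cannot be told apart. Under the block 0 members were called, with or without the correction (Lig4 -0.71, adjusted p = 0.123, and Lig3 -0.77, adjusted p = 0.0707, edgeR). Under the block Nhej1 was at 0.16 and Polq at 0.11, and with the correction added Polq was at 0.24 and Xrcc1 at -0.19.

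Signs turned only in members that were not called. Nhej1 (near 0) was at 0.0021 with median-of-ratios scaling, 0.087 with upper-quartile scaling, 0.032 with the 1 CPM filter, 0.0046 in DESeq2 and 0.0027 in limma-voom, and ran from -0.087 to 0.12 without 1 library. Xrcc1 was at -0.25 with the correction, -0.079 with it and RI replicate 1 left out, and ran from -0.097 to 0.20 without 1 library. Without 1 library Polq ran from -0.46 to 0.023, beside its values under the block above. Lig4, Lig3, Xrcc4, Xrcc5, Xrcc6, Parp1 and Dclre1c kept their direction in all 18 alternatives.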
